A study of Mus musculus with 8 samples.

Results

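The genes described here are those of the cytosolic ribosome, the particle of 2 subunits on which nuclear-encoded proteins are made. A gene belonged to the set if its mouse symbol was Rpl, Rps or Rplp followed by a number, with an optional letter or l1 ending, or was Rpsa. Kinases of the Rps6k family, ps-named pseudogenes and mitochondrial ribosomal proteins stayed out. Of 87 symbols that matched, 83 had a probe that could be named from its RefSeq accession, through 170 probes, out of 21368 genes named on the array. Those without a named probe were Rpl37 and the pseudogenes Rpl32p, Rpl6l and Rps12l1. The filter on dim probes left 81 of the 83 among 16618 genes tested, and Rpl10l and Rpl39l did not pass it. The 81 comprised 30 proteins of the small subunit, 42 of the large subunit, the 3 stalk proteins Rplp0, Rplp1 and Rplp2, and 6 paralogues or gene copies (Rpl3l, Rpl7l1, Rpl22l1, Rpl32l, Rps27l and Rps4l). RefSeq lists Rps4l as a transcribed pseudogene and the other 82 of the 83 as protein-coding. Rps3a1, Rpl36al, Fau and Rack1 also encode ribosomal components but fell outside the symbol rule and are given separately.

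Hippocampal RNA of 8 female mice was measured, 1 array per mouse. All 8, treated or not, were littermates without the transgenes of the APPswe/PSEN1dE9 line on a C57BL/6J background. The 4 Control mice were untreated and 19 weeks old. The 4 Hydroxyurea mice drank hydroxyurea at 45 mg/kg/day for 10 weeks, and Hydroxyurea 1 and 2 were 24 weeks old at the end, Hydroxyurea 3 and 4 19 weeks. Hydroxyurea inhibits ribonucleotide reductase, the enzyme that supplies deoxynucleotides for DNA synthesis. The Hydroxyurea arrays took row 2 of the slide and the Control arrays row 1, and the effects of row and group cannot be told apart. A value below is the log2 of the processed signal minus the log2 of the 75th percentile of that array, the scaled log2 signal. In a bulk tissue sample, fewer cells of a type and less RNA per cell cannot be told apart.

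Ribosomal protein mRNAs are among the most abundant messengers of a cell, and most of their products are needed in equal numbers in each ribosome. Most of these mRNAs begin with a run of pyrimidines at the cap, the 5′ terminal oligopyrimidine (TOP) motif, through which mTOR signalling and the protein Larp1 control their translation as a group. Neurons carry ribosomes in the cell body and in dendrites, where local translation serves synaptic plasticity, and surplus ribosomal proteins that are not built into ribosomes can engage the p53 pathway. Several members also serve as reference genes in expression studies.

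The start sites of a few members are shown because a pyrimidine run at the start is a known feature of these genes that the symbol rule did not use. RefSeq start-site windows (build GRCm38.p6, 250 bases before to 50 after the start) were found for 62 of the 83 members, and the first listed start was taken for each gene. Each line gives the 30 bases before the start and the first 20 transcribed bases on the sense strand. Capitals mark a run of at least 8 C or T letters that touches the 5 bases on either side of the start.
Rps6 (chr4:86857348-86857397, minus strand): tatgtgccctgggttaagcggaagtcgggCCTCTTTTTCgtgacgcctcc
Rps18 (chr17:33955646-33955695, minus strand): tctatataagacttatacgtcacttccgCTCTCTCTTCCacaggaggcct
Rps27 (chr3:90213629-90213678, minus strand): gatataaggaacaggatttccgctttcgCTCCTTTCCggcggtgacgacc
Rpl15 (chr14:18270967-18271016, minus strand): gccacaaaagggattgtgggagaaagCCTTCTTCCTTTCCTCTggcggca
Rpl27a (chr7:109519165-109519214, plus strand): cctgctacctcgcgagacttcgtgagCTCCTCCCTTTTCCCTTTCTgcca
Rpl22l1 (chr3:28805478-28805527, plus strand): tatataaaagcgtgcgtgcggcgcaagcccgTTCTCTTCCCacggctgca
Rpl39 (chrX:37085203-37085252, minus strand): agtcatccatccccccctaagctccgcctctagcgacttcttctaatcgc
Rpl10 (chrX:74270786-74270835, plus strand): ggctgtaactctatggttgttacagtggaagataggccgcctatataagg
Rpl10l (chr12:66284382-66284431, minus strand): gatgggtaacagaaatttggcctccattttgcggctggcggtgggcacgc
Rpl3l (chr17:24727796-24727845, plus strand): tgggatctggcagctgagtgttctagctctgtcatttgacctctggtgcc

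The run covered 10 bases in Rps6, 11 in Rps18, 9 in Rps27, 17 in Rpl15 and 20 in Rpl27a. The paralogue Rpl22l1 had one of 10 bases. Rpl3l, which replaces Rpl3 in heart and skeletal muscle, and Rpl10l, which stands in for X-linked Rpl10 in male germ cells, had at most 4 pyrimidines in a row there, and Rpl10 at its first listed start had 1. A run of at least 8 stood at the start of 22 of 62 members (35.5%), against 9.3% of the 27025 genes with a window and 9.56% of the 13170 of them that were tested. The letters CCGGAAG, the core of sites for Ets-family factors, occurred on either strand of the 300 bases in 23 of 62 members (37.1%), 9.12% of all genes with a window and 14.9% of those tested. A match describes letters and not a binding site. Of the 22 tested members with the run, 16 had a higher mean in Hydroxyurea mice, with a median difference of 0.04 (log2), and of the 38 without it 26 did, also with a median of 0.04.

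For nearly all ribosomal protein genes, the data held the difference between treated and untreated hippocampus below 1.5-fold. Of the 81 members tested with limma, 0 were called at an adjusted p under 0.05, as were 0% of all 16618 genes. At an unadjusted p under 0.05 there were also 0 of 81, while 9.89% of all genes tested passed that threshold, 3.53% higher and 6.36% lower. The smallest unadjusted p of a member was 0.0816, for Rps15, with an adjusted p of 0.548. These values hold for the 75th percentile. Under quantile normalization 1 of 81 members had an unadjusted p under 0.05, beside 1676 of all 16618 genes. With normexp background correction 2 of 81 did, beside 2013 of all genes. Differences of the members reported here ran from -0.11 (Rps27l) to 0.36 (Rps15a) on the log2 scale. For 79 of 81 members (97.5%) the 95% interval of the difference lay inside a change of 1.5-fold in either direction, which held for 77.7% of all genes and 94.9% of the 1662 brightest genes. It lay inside 1.25-fold for 66 of 81 (81.5%), against 42.1% of all genes and 69.9% of the 1662 brightest. Narrow intervals were not particular to the members. The share inside 1.25-fold was 90.9% for mitochondrial ribosomal proteins and 89.3% for initiation genes. It was 74.5% for ribosome assembly, 73.1% for RNA polymerases I and III, 66.7% for mTOR, 61.1% for elongation and 50% for rescue genes. The members that were exceptions at 1.5-fold were Rps15a and Rpl22l1, which are described with Control 1 below.

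**Figure D1:**
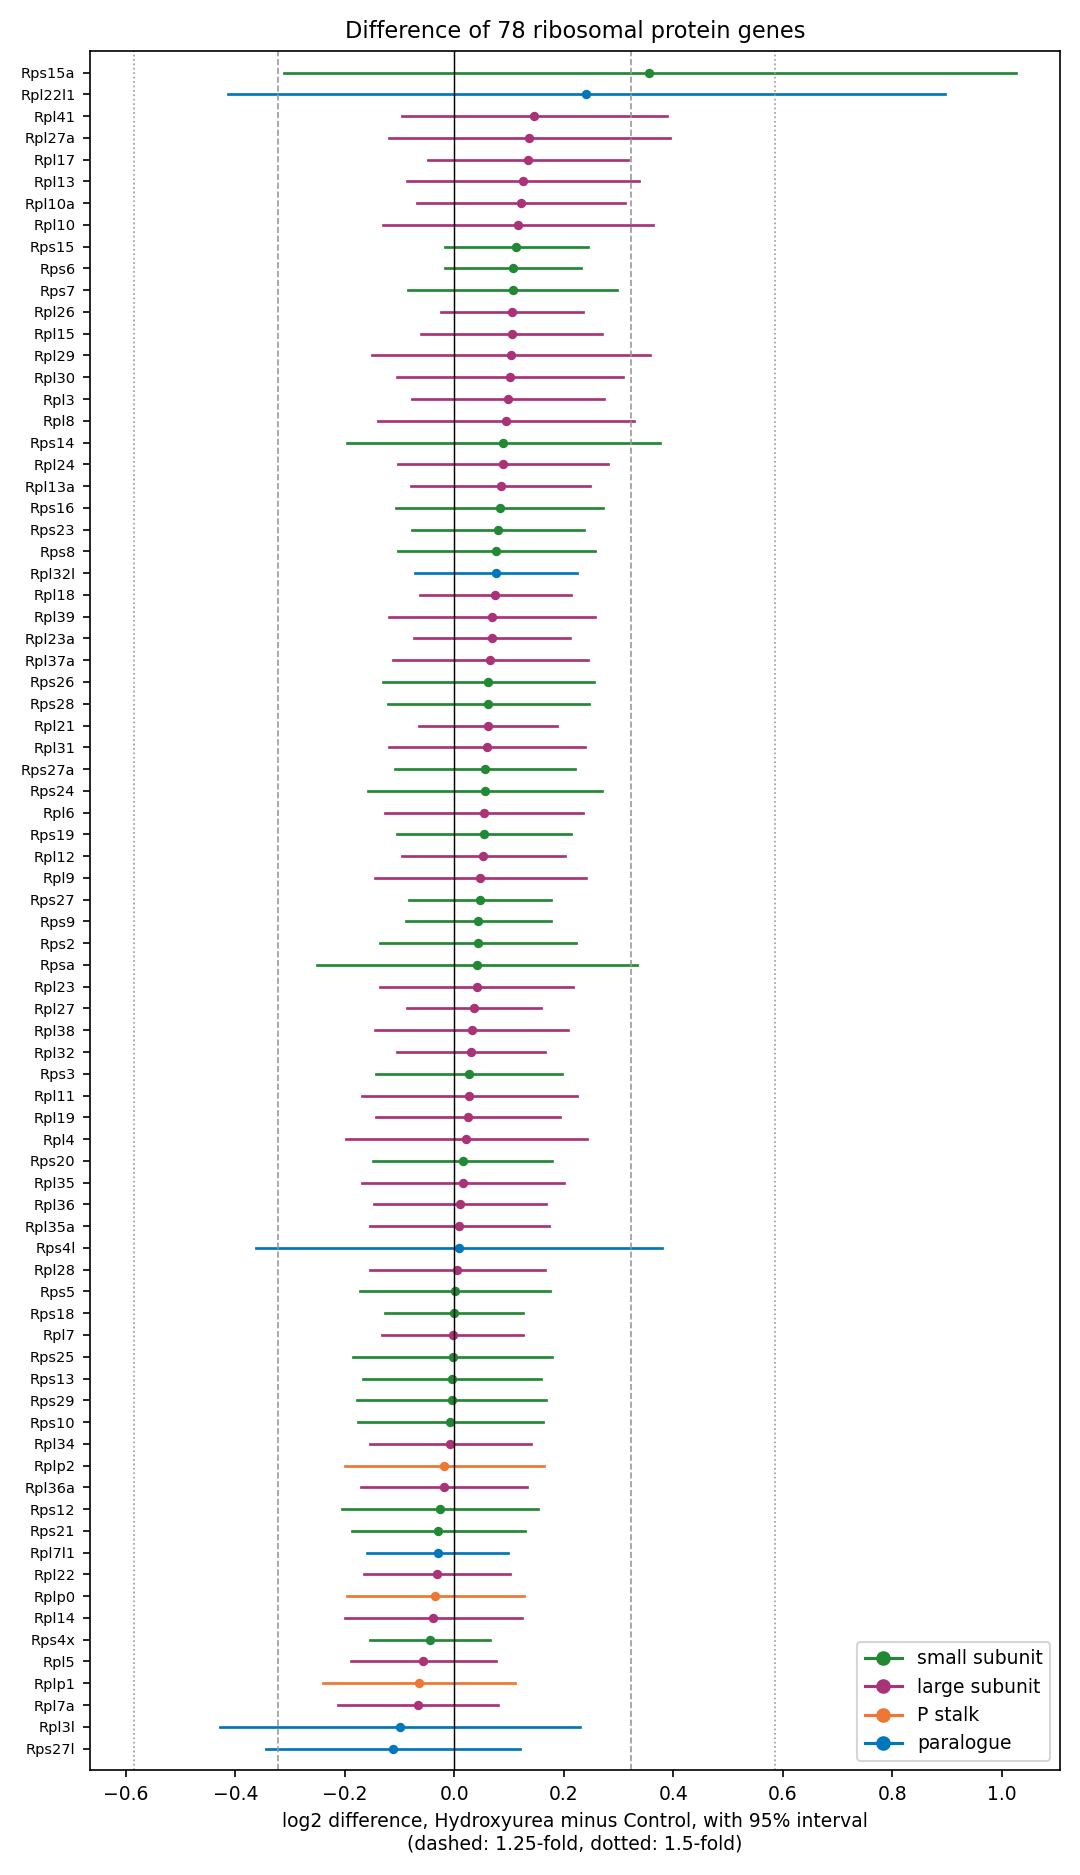
Log2 difference of 78 ribosomal protein genes, Hydroxyurea minus Control (4 mice each), with its 95% interval from the limma fit, sorted and coloured by subunit. The points run from -0.11 for Rps27l to 0.36 for Rps15a, every interval includes 0, and the intervals of Rps15a and Rpl22l1 extend past the dotted 1.5-fold line.

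The probes that stood for 77 of the 81 members were among the 1662 brightest of all genes tested, with signals of 3.84 and above on the scaled log2 scale. These 77 were all 30 small-subunit, 42 large-subunit and 3 stalk genes and 2 paralogues, Rpl22l1 and Rpl32l. Probe signals do not rank transcripts against each other. Over the 8 mice the SD of a member had a median of 0.0938 log2 units, with an interquartile range from 0.0771 to 0.118, while the median was 0.161 over all genes and 0.106 over the 1662 brightest. Low SDs were not particular to the members. The median was 0.0823 for mitochondrial ribosomal proteins, 0.0901 for structural genes outside the symbol rule and 0.0938 for RNA polymerases I and III. It was 0.101 for initiation, 0.107 for ribosome assembly and for elongation, 0.112 for mTOR and 0.131 for rescue genes. A list of 14 common reference genes had a median SD of 0.175. Quantile normalization gave 0.0754 for the members, 0.111 for the reference genes and 0.159 for all genes. Beside other genes of the same range of signal, the median SD was 0.0709 for members and 0.103 for others between 4 and 5, 0.0859 and 0.0999 between 5 and 6, and 0.0963 and 0.133 between 6 and 7. No test was made of these SDs.

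With the 75th percentile, the steadiest member was Rps4x, the X-linked form of a small-subunit protein, with an SD of 0.0276 over the 8 mice. Its values were 4.89, 4.90, 4.88 and 4.88 in the 4 Control mice and 4.83, 4.85, 4.83 and 4.87 in the 4 treated mice, each in the order of their numbers. All 4 treated values lay below all 4 Control values, a log2 difference equal to -0.04 ± 0.05 (SE; limma, 4 mice per group, adjusted p = 0.766). Its groups overlapped under quantile normalization. Rps18, which is often used as a reference gene, had 4.66, 4.75, 4.67 and 4.76 in Control and 4.66, 4.70, 4.73 and 4.76 in Hydroxyurea mice. These values covered the same range in both groups, with a 95% interval of the difference from -0.13 to 0.13. Rpl7, a large-subunit protein, had 6.23, 6.33, 6.21 and 6.29 in Control and 6.28, 6.29, 6.20 and 6.27 in Hydroxyurea mice. The groups overlapped, and its SD over 8 mice was 0.0464. Rpl13a and Rplp0, 2 further reference genes, had SDs of 0.092 and 0.0808 over the 8 mice.

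**Figure D2:**
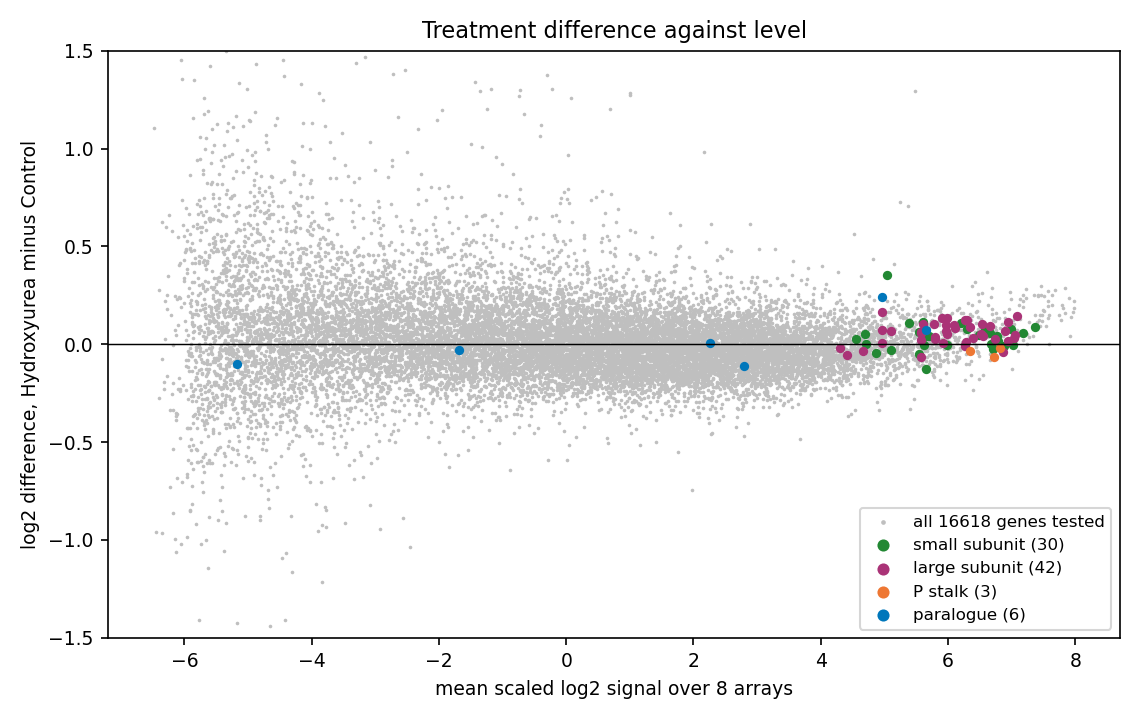
Log2 difference, Hydroxyurea minus Control, against the mean scaled log2 signal over 8 arrays for all 16618 genes tested (grey) and the 81 ribosomal protein genes by subunit (colours). The vertical axis ends at 1.5 in each direction, beyond which 31 grey points are not drawn. All but 4 coloured points sit at the right edge, where grey points spread little around 0.

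Small-subunit genes had a higher mean in Hydroxyurea mice for 20 of 30, with a median log2 difference of 0.04, but the direction of the group rested on the scaling, with 10 of 30 higher and a median of -0.03 under quantile normalization. Rps6, the substrate of the S6 kinases below mTOR, had 6.12, 6.21, 6.11 and 6.16 in Control mice and 6.23, 6.29, 6.21 and 6.30 in Hydroxyurea mice. The highest Control and the lowest treated value both round to 6.21, and the groups did not overlap. The difference was 0.11 ± 0.05 (SE; limma, 4 mice per group, adjusted p = 0.549). The other Rps6 probes gave 0.04 and -0.01. Groups also did not overlap for Rpl26 (higher) and Rps4x (lower), which makes 2 of 81 higher (2.47%, against 2.38% of all genes) and 1 of 81 lower (1.23%, against 5.08%), or 3 of 81 in all (3.7%, against 7.46%).

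Rps15, a protein of the small-subunit head, had 5.56, 5.59, 5.50 and 5.55 in Control and 5.58, 5.73, 5.68 and 5.66 in Hydroxyurea mice. Treated mice other than Hydroxyurea 1 lay above all Control mice, and the difference was 0.11 ± 0.06 (SE; limma, 4 mice per group, adjusted p = 0.548), while a second Rps15 probe gave -0.01 (0.04 without Control 1). Rps19, the gene most often mutated in the inherited anaemia Diamond-Blackfan anaemia, had 4.60, 4.73, 4.63 and 4.72 in Control and 4.59, 4.81, 4.72 and 4.76 in Hydroxyurea mice, with overlapping groups and a difference of 0.05 ± 0.07. Rps27a, which is made as a fusion with ubiquitin, differed by 0.06 ± 0.07 and Rpsa, also known as the laminin receptor, by 0.04 ± 0.13.

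Large-subunit genes had a higher mean for 35 of 42, with a median of 0.06, against 22 of 42 and 0.01 under quantile normalization and 15 of 42 and -0.02 when each array was scaled to its median. Under that last scaling 29.7% of all genes had a higher mean. Rpl26, which contacts the mRNA of p53 outside the ribosome, had 5.73, 5.76, 5.68 and 5.74 in Control and 5.77, 5.92, 5.83 and 5.81 in Hydroxyurea mice. Every treated value lay above every Control value, though the gap was 0.01, and the difference was 0.11 ± 0.06 (SE; limma, 4 mice per group, adjusted p = 0.563). Of the other Rpl26 probes, 1 differed by 0.07 (0.05 without Control 1). The other had 3.28 in Control 1, 3.70 to 3.90 in the remaining Control and 3.63 to 3.89 in Hydroxyurea mice, and its difference of 0.12 became -0.00345 without Control 1.

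Rpl17, at the exit of the peptide tunnel, differed by 0.13 ± 0.08, Rpl10a of the L1 stalk by 0.12 ± 0.08, Rpl15 by 0.10 ± 0.07 and Rpl41, a very short basic peptide, by 0.15 ± 0.10. All 4 had overlapping groups, and Rpl41 and Rpl10 had differences of -0.000667 and -0.0351 with normexp. Rpl5 and Rpl11 form a complex with 5S rRNA that can bind Mdm2, the ligase that degrades p53. Rpl5 had 4.43, 4.40, 4.50 and 4.44 in Control and 4.42, 4.31, 4.36 and 4.46 in Hydroxyurea mice, and Rpl11 had 6.64, 6.85, 6.65 and 6.74 in Control and 6.67, 6.94, 6.72 and 6.66 in Hydroxyurea mice. The groups overlapped for both, with differences of -0.06 ± 0.06 for Rpl5 and 0.03 ± 0.09 for Rpl11. Rpl7a had a lower mean, by -0.07 ± 0.06, and Rpl3, which lies near the peptidyl transferase centre, a higher one, by 0.10 ± 0.08. Among 17 members mutated in Diamond-Blackfan anaemia, 13 had a higher mean with the 75th percentile and 7 with quantile normalization.

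The stalk proteins, which recruit the elongation factors to the large subunit, all had a lower mean in treated mice, under each of 5 scalings. Rplp0 had 6.41, 6.40, 6.25 and 6.36 in Control and 6.22, 6.45, 6.32 and 6.29 in Hydroxyurea mice, a difference of -0.03 ± 0.07. Rplp1 had 6.81, 6.80, 6.65 and 6.77 in Control and 6.64, 6.86, 6.69 and 6.58 in Hydroxyurea mice, a difference of -0.07 ± 0.08. Rplp2 had 6.98, 6.81, 6.74 and 6.79 in Control and 6.71, 6.95, 6.82 and 6.77 in Hydroxyurea mice, a difference of -0.02 ± 0.08. The highest treated value of each was that of Hydroxyurea 2, and the groups overlapped for all 3. The smallest limma adjusted p of the 3 was 0.786. It was 0.464 for quantile-normalized values (unadjusted p = 0.027) and 0.389 with normexp (unadjusted p = 0.0368). Without Control 1, 1 of the 3 had a higher mean.

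Of the 81 members, 15 had a higher mean in Hydroxyurea mice under all 5 scalings (75th percentile, array median, quantile, cyclic loess and normexp), 18 a lower mean under all 5, and 48 changed sign between them. The 15 included Rps6, Rps15, Rpl26, Rpl17, Rpl15, Rpl10a and Rpl3, and the 18 included the 3 stalk proteins, Rps4x, Rpl5 and Rpl7a, although Rpl7a had a higher mean as a z score of the value table. The 15 also held Rps15a, Rpl22l1 and Rpl27a, which had low values in Control 1. Without Control 1 the differences of these genes with the 75th percentile were 0.04, -0.08 and 0.02. The array median shifts every gene by one amount, and under it 29.7% of all genes had a higher mean, against 48.7% with the 75th percentile. Counts under all 5 scalings are not given for all genes. The sign of a difference is not a call, and 0 of these members were called under any of these scalings.

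The 6 paralogues tested had a median SD over 8 mice of 0.179, from 0.0489 for Rpl7l1 to 0.442 for Rpl22l1, whose value in Control 1 stood apart. Of the 6, 3 had a higher mean, and the median difference was -0.01. Rps27l, a gene that p53 can induce, had 2.76, 2.82, 2.94 and 2.88 in Control and 2.61, 2.61, 2.72 and 3.01 in Hydroxyurea mice, a difference of -0.11 ± 0.10. Hydroxyurea 1, 2 and 3 lay below all Control mice and Hydroxyurea 4 above them. With 19-week mice only, the difference was 0.01. Its main-ribosome counterpart Rps27 differed by 0.05 ± 0.06. Rpl7l1 had values between -1.76 and -1.61 in all 8 mice, and its difference was -0.03 ± 0.06.

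Rpl3l, Rpl10l and Rpl39l stand for other organs here, muscle for the first and the testis for the others, and they were at or near the limit of detection. Rpl3l was well above background on 6 of 8 arrays, with values from -5.51 to -4.92 and overlapping groups. Rpl10l was well above background on 3 arrays, those of Control 4, Hydroxyurea 1 and Hydroxyurea 4, and Rpl39l on 0, so neither was tested and no fold is given. Among Control arrays the lowest scaled signal well above background lay between -6.59 and -5.77, and among Hydroxyurea arrays between -6.18 and -5.04. Rpl3 and Rpl39, the widely expressed counterparts of Rpl3l and Rpl39l, were well above background on all 8 arrays, as was Rpl10, with 6.80, 7.04, 6.73 and 6.96 in Control and 6.85, 7.24, 6.96 and 6.95 in Hydroxyurea mice. Rpl10 values overlapped between groups, with a difference of 0.12 ± 0.11.

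Members varied together from mouse to mouse, and with the 75th percentile other bright genes shared part of the pattern. The score of a mouse is the mean over the 81 members of the value minus the mean of that gene over 8 mice. Its values were -0.07, 0.05, -0.06 and -0.01 for the Control mice and -0.06, 0.14, 0.01 and 0.00 for the Hydroxyurea mice, in numerical order. The groups overlapped, with means of -0.02 ± 0.05 (SD, n = 4) in Control and 0.02 ± 0.08 in Hydroxyurea mice. Hydroxyurea 2 was the highest of the 8 mice for 53 of 81 members, and 74 of 81 members were above their own mean in it. Its array was the dimmest, with a 75th percentile of the raw signal of 1052, against 1677 to 2417 on Control arrays and 1680 to 2162 on the other Hydroxyurea arrays.

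Quantile normalization, which gives all arrays one distribution of signals, turned this around. Hydroxyurea 2 was then the highest mouse for 6 members and the lowest for 32, and its score was -0.04, beside -0.03, -0.01, 0.05 and 0.01 for the Control mice and -0.01, -0.03 and 0.05 for Hydroxyurea 1, 3 and 4. The difference between the groups was 0.04 with the 75th percentile and -0.01 with quantile normalization. The median Pearson correlation of a pair of members across the 8 mice was 0.47 over 3240 pairs that share the arrays and their scaling, and 0.21 after quantile normalization. Without Hydroxyurea 2 it was 0.31, and without both Control 1 and Hydroxyurea 2 it was 0.43, each with the 75th percentile. No such correlation was computed for pairs of other genes.

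**Figure D3:**
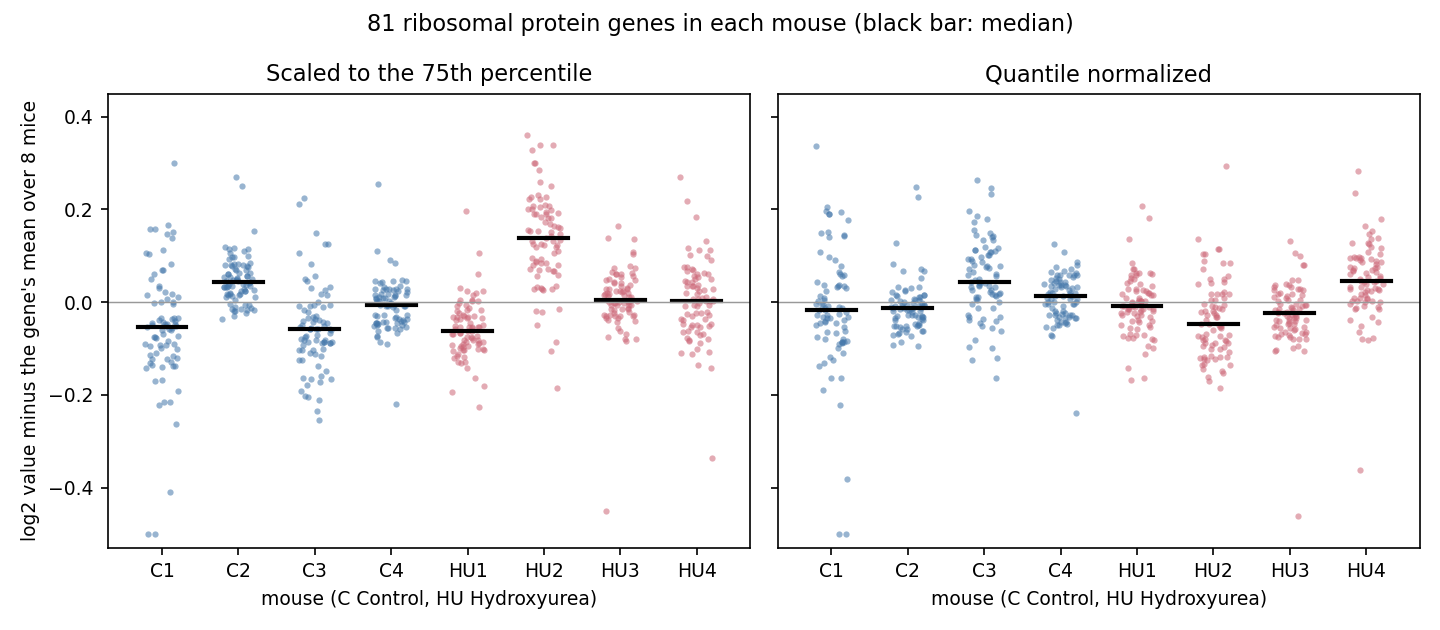
Deviation of each of the 81 ribosomal protein genes from its mean over 8 mice (log2 units), by mouse, scaled to the 75th percentile (left) and quantile normalized (right). Black bars are medians, and in Control 1 the 2 points of Rps15a and Rpl22l1 are drawn at -0.5 although they lie lower. In Hydroxyurea 2 the median is 0.139 on the left and -0.048 on the right.

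With the 75th percentile, 58 of 81 members (71.6%) had a higher mean in Hydroxyurea mice and 23 a lower one, with a median of 0.04, while 48.7% of all genes were higher with a median of -0.00384. Without Hydroxyurea 2 the count was 41 of 81 (50.6%) and the median 0.000774. The share of members was 43.2% under quantile normalization (46% of all genes) and 34.6% with normexp background correction (45.7%). It was 27.2% with the array median (29.7%) and 71.6% with cyclic loess (51.9%). The z scores of the authors' deposited value table, which divide each array by its own SD and so are on another scale than log2 values, gave 96.3%. Among 19-week mice alone, 4 Control and 2 Hydroxyurea, 61.7% of members were higher, with a median of 0.0221. The array median moved the median of all genes to -0.0854, and since it shifts every gene by one amount, the median of the members, -0.0381, stood as far above that of all genes as before. Other genes were set beside the members by signal. At signals between 6 and 7, 75.8% of 33 members and 74.3% of 148 other genes had a higher mean, with medians of 0.05 for both, and the median deviation in Hydroxyurea 2 was 0.169 for members and 0.17 for the others. Between 5 and 6 the shares were 77.8% of 27 members and 52.1% of 403 other genes, and between 4 and 5 they were 54.5% of 11 and 39.6% of 808. No test was made of these shares.

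**Figure D4:**
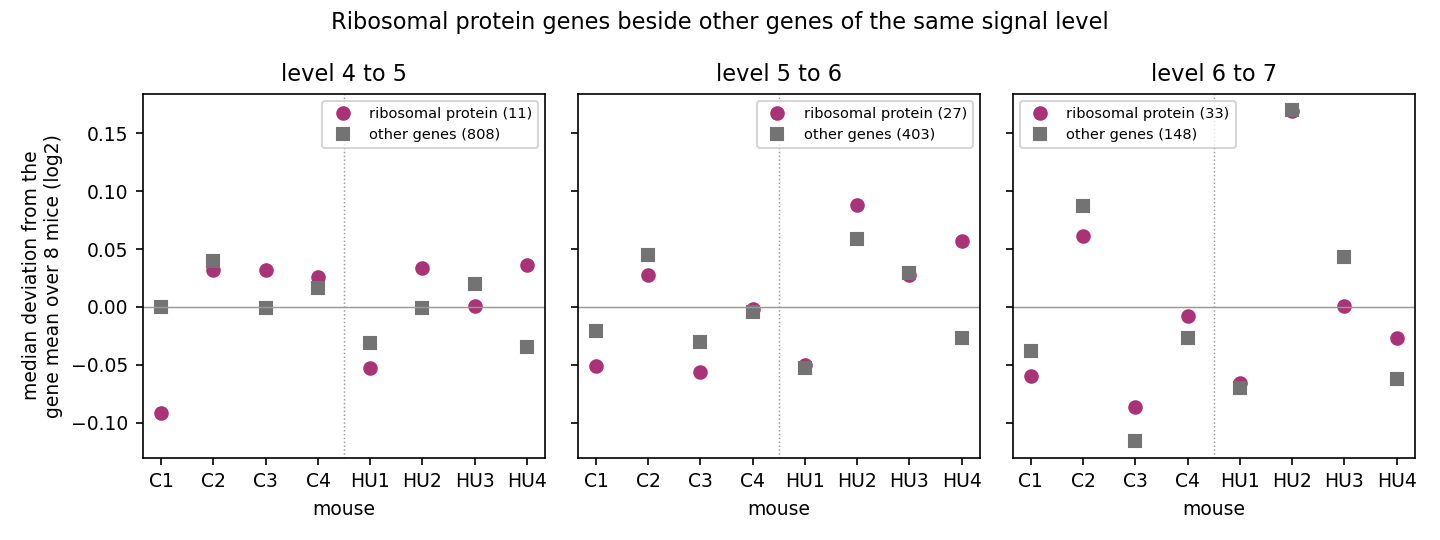
Median deviation from the gene mean over 8 mice (log2), by mouse, for ribosomal protein genes (circles) and other genes of the same scaled log2 signal (squares), in 3 ranges of signal. Between 6 and 7 both stand at 0.17 in Hydroxyurea 2, and in Hydroxyurea 3 members are at 0.001 and other genes at 0.043. Between 5 and 6 they part most in Hydroxyurea 4, at 0.057 for members and -0.027 for other genes.

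The members with the widest intervals, Rps15a and Rpl22l1, had a low value in Control 1. Spots that carry the same bright probe varied by a median of 9.37% on the array of that mouse, against 2.58% to 2.84% on the other 7 arrays. Rps15a, a small-subunit protein, had 3.90 in Control 1, 5.29, 5.27 and 4.99 in the other Control mice and 5.15, 5.24, 5.18 and 5.31 in Hydroxyurea mice. Only Control 1 stood apart, and the difference of 0.36 ± 0.29 had a 95% interval from -0.31 to 1.02 and was 0.04 without Control 1. The other probes of Rps15a showed no such drop, with 4.96 for one of them on that array and 5.03 to 5.06 on the 3 further Control arrays, and gave differences of -0.09 and -0.08.

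Rpl22l1, which can take the place of Rpl22, had 3.90 in Control 1, 5.24, 5.19 and 5.09 in the other Control mice and 5.04, 5.20, 5.14 and 5.01 in Hydroxyurea mice. It had 1 probe, and its difference was 0.24 ± 0.28, or -0.08 without Control 1. Rpl22 itself had 4.60, 4.68, 4.71 and 4.70 in Control and 4.61, 4.69, 4.58 and 4.70 in Hydroxyurea mice, with overlapping groups. Rpl27a had 5.58 in Control 1 against 6.01 to 6.06 in the other Control and 6.01 to 6.11 in Hydroxyurea mice, while its other probes had 4.43 against 4.60 to 4.61 and 5.46 against at least 5.56 in Control 1 and the other Control mice. The part of the Control 1 array in these values was not tested beyond leaving it out. That gave 57 of 81 members higher (70.4%), against 47.9% of all genes, and a median of 0.03 for the members. At an unadjusted p under 0.05 (limma) there were 0 of 81 members, beside 2519 of all 16547 genes tested.

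**Figure D5:**
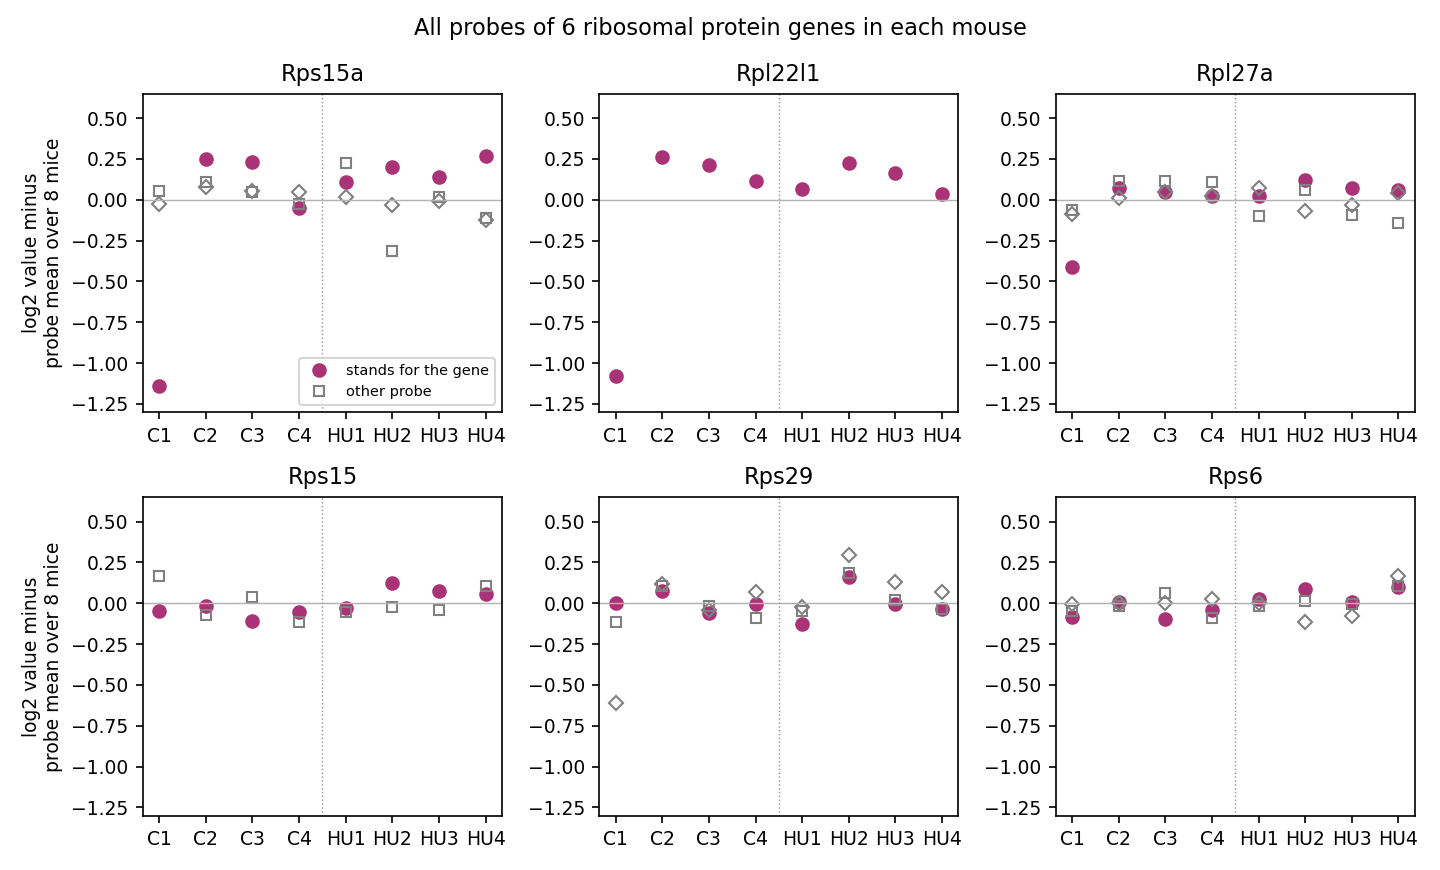
Scaled log2 signal of every probe of 6 ribosomal protein genes, minus the mean of that probe over 8 mice, by mouse. Filled circles are the probe that stands for the gene and open symbols its other probes. The filled circles of Rps15a, Rpl22l1 and Rpl27a drop in Control 1, and 1 other probe of Rps29 drops there, while Rps6 probes stay within about 0.2 of their means.

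Probes of 1 gene did not always point the same way. Of the 170 probes 167 were tested, and 25 of 51 members with more than 1 tested probe had probes of both signs. At an unadjusted p under 0.05 there were 4 member probes (2.4%, against 8.5% of all 36750 probes tested), 1 higher and 3 lower, and 0 were called. A dim probe of Rpl39, a small protein that lines the peptide tunnel, had -2.72, -2.79, -2.69 and -2.76 in Control and -2.94, -3.09, -3.10 and -2.90 in Hydroxyurea mice. All treated values lay below all Control values, with a difference of -0.27 ± 0.07 (SE; limma, 4 mice per group, adjusted p = 0.57). The bright probe that stood for Rpl39 gave 5.05, 5.07, 5.09 and 5.05 in Control and 4.91, 5.20, 5.21 and 5.23 in Hydroxyurea mice. There Hydroxyurea 1 lay below and the other treated mice above all Control mice. A dim probe of Rpsa likewise had -0.24 ± 0.08 beside 0.04 ± 0.13 for its bright probe. In the same fit of every probe, the dim probe of Rpl14 had -0.26 ± 0.07 and its bright one -0.04 ± 0.08. A dim probe of Rps27a had 0.42 ± 0.16 and the bright one 0.06 ± 0.08. The transcripts or regions that the dim probes detect are not known here, and probe levels are not compared.

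Within the Hydroxyurea group, the 24-week mice were set against the 19-week mice, 2 against 2. At an adjusted p under 0.05, 0 of 81 members and 0% of all genes were called with limma, and at an unadjusted p under 0.05 there was 1 member (1.23%), against 2.7% of all genes. That member was the pseudogene Rps4l, with 2.46 and 2.52 at 24 weeks, 1.81 and 2.27 at 19 weeks and 2.04 to 2.39 in Control mice. Its difference was 0.45 ± 0.17 (SE; limma, 2 mice per age, adjusted p = 0.9999). Other differences with the smallest p were 0.14 ± 0.10 for Rpl38, 0.17 ± 0.13 for Rps24, -0.25 ± 0.12 for Rps27l, -0.17 ± 0.11 for Rpl39 and -0.09 ± 0.10 for Rpl28. Of 81 members 56 had a higher mean at 24 weeks, beside 7402 of all 16618 genes and 878 of the 1662 brightest. Of mitochondrial ribosomal protein genes 14 of 77 did. The pair of older mice stood at opposite ends, however, with member scores of -0.06 and 0.14. Without Hydroxyurea 2 the share of members was 17.3% in place of 69.1%. Haemoglobin and other blood genes were higher at 24 weeks for 6 of 6 tested, with scores of 0.57 and 0.42 in the older and -0.55 and -0.24 in the younger treated mice. Blood was not the only such list. Microglia markers were higher for 10 of 10, oligodendrocyte markers for 0 of 10 and choroid plexus markers for 0 of 16. Neuron markers were higher for 12 of 15, endothelium markers for 8 of 10 and astrocyte markers for 7 of 10. The part of these tissues in the member values was not tested.

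Genes outside the symbol rule gave like values. Rps3a1 differed by 0.05 ± 0.06, Rpl36al by -0.05 ± 0.05 and Rack1, a scaffold on the small subunit, by -0.03 ± 0.08.

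Genes that build, regulate and read the ribosome were followed in lists, and 0 of their genes were called, with every adjusted p at 0.452 or above. Of 18 elongation factors and other TOP genes 12 had a higher mean (11 under quantile normalization), with a median of 0.03, but without Control 1 the count was 9 of 18 and the median 0.00214. The array median, under which 29.7% of all genes had a higher mean, gave 6 of 18 and -0.05. At an unadjusted p under 0.05 these held Eif3f (0.20 ± 0.06) and Eif4b (0.20 ± 0.07), a subunit of initiation factor 3 and a helpmate of the eIF4A helicase. Of 28 initiation genes 13 had a higher mean and 0 passed that threshold. Among 24 genes of mTOR and growth control 10 had a higher mean. Rps6kb1, the kinase that phosphorylates Rps6, had 3.98 ± 0.07 (SD, n = 4) in Control and 3.72 ± 0.08 in Hydroxyurea mice, without overlap. Its difference was -0.26 ± 0.07 (SE; limma unadjusted p = 0.00441, adjusted p = 0.452). Larp1, which binds TOP messengers, had -0.16 ± 0.06.

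Among 26 genes of RNA polymerases I and III, which make ribosomal and transfer RNA, 11 had a higher mean. Polr3a, the largest subunit of RNA polymerase III, had 0.40 ± 0.17 and Gtf3c2, of its factor TFIIIC, -0.16 ± 0.06. Of 47 ribosome assembly factors 20 had a higher mean, and Rpf2, which loads the 5S particle, had -0.19 ± 0.06 and Fbl, the rRNA methyltransferase fibrillarin, 0.13 ± 0.06. Of 18 genes of ribosome rescue and quality control 2 had a higher mean, with a median of -0.08, 4 under quantile normalization and 1 with the array median. Eif2ak4, the kinase Gcn2 that senses stalled ribosomes and uncharged tRNA, had lower values in all Hydroxyurea mice than in any Control mouse, a difference of -0.34 ± 0.07 (SE; limma adjusted p = 0.452). Ascc3, a helicase that splits collided ribosomes, had -0.14 ± 0.06, but 0.04 as a mean over its probes. Of 77 mitochondrial ribosomal protein genes 25 had a higher mean, with a median of -0.02, and 34 had one under quantile normalization.

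Tissue markers were checked on the same arrays. All 15 hippocampal neuron markers passed the filter, and 12 of 15 had a lower mean in Hydroxyurea mice, with a median of -0.11. Without Control 1, 7 of 15 had a higher mean, and under quantile normalization 6 of 15 did. Groups did not overlap for 1 of the 15, Spink8, which was lower by a difference of -0.32 ± 0.10 (SE; limma, 4 mice per group, adjusted p = 0.472). The score of 10 oligodendrocyte markers was 0.15, -0.29, -0.02 and -0.03 in Control and 0.18, -0.34, 0.10 and 0.25 in Hydroxyurea mice. In each group it was lowest in the mouse with the highest ribosomal protein score with the 75th percentile, Control 2 and Hydroxyurea 2. That match rested on the scaling. Under quantile normalization the ribosomal protein scores of these 2 mice were -0.01 and -0.04, and neither was the highest of its group. Astrocyte, microglia and endothelium markers had a higher mean for 5 of 10, 7 of 10 and 5 of 10. The 16 choroid plexus markers, genes of the ventricular epithelium next to the hippocampus, had a median difference of 1.3 and 16 of 16 higher means, with 0 at an unadjusted p under 0.05. Their score ran from -2.06 to 0.79 (Control 3) in Control and from -1.19 to 2.72 (Hydroxyurea 4) in Hydroxyurea mice. With the same scaling, the 75th percentile, the ribosomal protein score was highest in Hydroxyurea 2. Under quantile normalization the ribosomal protein score was highest in Control 3 and Hydroxyurea 4 within their groups, at 0.05 in each. The part of neurons, oligodendrocytes and choroid plexus tissue in the member values was not tested.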

How the data were processed

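Hippocampal total RNA of 8 mice was labelled with Cy3 and hybridised to 1-colour Agilent arrays, per the labels' protocols. Per the file headers, Feature Extraction 12.0.3.1 computed the processed signal intensity of a spot after subtracting background, with no scaling between arrays, and reported median spot and background intensities beside it. The authors' deposited value table contains z scores of log signals, which z scores computed anew matched within 0.00502.

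The log2 of the processed signal minus the log2 of the 75th percentile of the array was used, outlier spots left out and spots of a probe averaged. Of 55681 probes, 28331 were named by 1 RefSeq gene (GRCm38.p6 table), and the brightest probe stood for a gene. Testing a gene took 4 or more arrays well above background and 6 or more values. Control arrays had 62.1% to 76.7% of probes well above background and Hydroxyurea arrays 59.65% to 69.0%, and 0 spots were saturated. R 4.3.3 with limma 3.58.1 (lmFit, eBayes) compared the groups (two-sided, Benjamini-Hochberg over all 16618 genes, threshold 0.05), and ages in a fit with 3 group means. The fit was tested on simulated data. The 8 mice are taken as separate animals per the labels, and 4 per group limit the precision.

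Members, lists and tests were chosen with earlier results of these data known. Members named in the text are the 8 per direction with the smallest p for treatment, 3 per direction for age, fixed members and members with probes of both signs, plus genes named after their values were seen (Rps3, Rps14, Rps15a and Rpl27a), and from each list the genes with the smallest p. Alternatives covered scaling, background, filters, probe rules, age, variance models, the replicate number as a block and left-out arrays. Some items are not reported here.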

Additional observations from a re-analysis of the deposited data

Results flagged for a closer look

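In 96 groups of 4 mice, from the 47 genes followed and the ribosomal protein score in both treatment groups, the gap of the highest or lowest mouse to its neighbour was set against the range of the group. Chance puts 5% of such groups past the limit, and 5 groups were. Control 1 was the low mouse in 3 of them. Rpl22l1 had a scaled log2 signal of 3.9 there and 5.09 to 5.24 on the remaining Control arrays. Rpl27a had 5.58 in it and 6.01 to 6.06 in the others, and Rps3, a small-subunit protein at the mRNA entry, had 4.41 and 4.57 to 4.59. Replicate spots varied by 9.37% on that array. Hydroxyurea 1 was low for Rpl39, with 4.91 against 5.2 to 5.23 in the other treated mice. Control 2 was low for Rpf2, with 2.3 against 2.34 to 2.35, a gap of a few hundredths on the log2 scale.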

How the results depend on the processing

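In the treatment comparison, 0 members and 0 of all genes were called under any of the 24 alternatives, including an adjusted p under 0.1. The direction of the members was not stable. Their median difference of 0.0435 became -0.0381 with the array median, -0.0199 with quantile normalization, -0.0117 with normexp, -0.00243 with array weights and -0.0119 without both Control 1 and Hydroxyurea 2, and ran from 0.000774 to 0.071 with 1 array left out. It was 0.0221 among 19-week mice and with age as a covariate, and 0.0245 as a mean over probes. The share of members higher was 27.2%, 43.2%, 34.6%, 44.4% and 42% in the first 5 settings (50.6% to 81.5% with 1 array left out). The score difference of 0.0429 became -0.0387, -0.0101 and -0.00396 with the first 3 and -0.0113 without both arrays (0.00511 to 0.0695 with 1 left out). In the age comparison the median of 0.0346 became -0.0602 with the array median, where that of all genes went from -0.019 to -0.114, -0.0454 with quantile normalization, -0.0429 with normexp and -0.0601 without both arrays, and ran from -0.0601 to 0.135 with 1 left out. The shares were 19.8%, 27.2%, 29.6% and 17.3% (17.3% to 85.2%). Calls of all genes by age were 0 to 7 with 1 array left out, 1 without Hydroxyurea 3 and 7 without Hydroxyurea 4, and 0 of them members. The replicate number as a block left 0 calls and a median of 0.0435. Same-numbered mice correlated at 0.05, 0.20, -0.21 and -0.06 in their deviations, and mice of unlike number at -0.4 to 0.56. Whether the numbers pair samples cannot be told from these correlations. Of 1033 values of 47 single genes in other settings, 108 (29 genes) had another sign than the main value, and in 8 of them the main difference was larger than its SE: Ascc3 as a mean over probes (0.0394), Rpl10 with normexp (-0.0351) and array weights (-0.00106), Rpl13a (-0.0272) and Rpl41 (-0.000667) with normexp, Rpl7a (0.03) as a z score, and Rps27l at 0.0139 among 19-week mice and with age as a covariate. The causes were not tested, and dim paralogues are limited by signal over background.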
